A study of Mus musculus with 4 samples.

Results

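Matrix metalloproteinases (MMPs) and the proteins that restrain them were followed in the transcriptome of mouse lungs at embryonic day (E) 17. The 10 genes are 6 MMPs (*Mmp2*, *Mmp9*, *Mmp11*, *Mmp14*, *Mmp15* and *Mmp23*), 3 tissue inhibitors of metalloproteinases (*Timp1*, *Timp2* and *Timp3*) and *Reck*, taken by gene name from a table of 45706 genes. All 10 had a row in the table, and all 10 were among the 18763 genes whose mean over the lungs reached 5 reads, which were the genes tested. RNA came from the left lobe of 4 C57BL/6 lungs that had received no treatment. They comprised 2 wild-type lungs and 2 lungs homozygous for a missense allele of *Myh10*, *Myh10L458R/L458R*, called mutant lungs here. The allele arose in a chemical mutagenesis screen and changes the motor domain of non-muscle myosin II heavy chain B in every cell that makes it, so the comparison does not tell mesenchymal from epithelial effects. The study asked which genes change in the mutant lung and took up matrix remodeling and MMP activity from there, and the values below are RNA levels, not enzyme activity.

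MMPs are zinc-dependent proteases that cut collagens, elastin, laminins and other matrix proteins. They are made as inactive proenzymes, and a pro-domain has to be removed before they cut. The TIMPs bind the active site of MMPs and block it, and *Timp2* has a further role, since its protein bridges the proform of MMP2 to MMP14 at the cell surface, where MMP14 activates it. *Reck* encodes a membrane-anchored inhibitor. In the developing lung these enzymes and inhibitors shape the matrix around the growing airspaces.

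The coding sequences that give these proteins their roles are shown to identify the enzymes and the inhibitors. In each MMP, 3 histidines hold the catalytic zinc, and a glutamate between them takes part in the cut. The coding bases of this site are printed below, 5′ to 3′ on the coding strand, from GENCODE M21 transcripts of the GRCm38 assembly. Capitals mark the codons of the 3 histidines, the glutamate and an invariant glycine.

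Mmp2: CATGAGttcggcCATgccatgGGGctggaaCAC
Mmp9: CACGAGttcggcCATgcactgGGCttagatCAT
Mmp11: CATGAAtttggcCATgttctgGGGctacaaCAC
Mmp14: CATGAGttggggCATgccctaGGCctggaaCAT
Mmp15: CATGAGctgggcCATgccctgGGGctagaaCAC
Mmp23: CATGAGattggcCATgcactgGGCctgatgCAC

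The site lies in exon 8 of 13 of *Mmp2* (chr8:92839279-92839311, plus strand) and in exon 8 of 13 of *Mmp9* (chr2:164951133-164951165, plus strand). In *Mmp14* it lies in exon 5 of 10 (chr14:54437627-54437659, plus strand), and in *Mmp15* also in exon 5 of 10 (chr8:95368585-95368617, plus strand). In *Mmp11* (chr10:75926931-75926963, minus strand) and *Mmp23* (chr4:155651528-155651560, minus strand) it lies in exon 5 of 8.

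4 of the 6 MMPs also encode an arginine-rich stretch ahead of the catalytic part, of the kind that furin-like convertases cut to release the pro-domain. Capitals mark its basic codons at positions 1, 3 and 4 of the motif, and the first match in each protein is shown.

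Mmp11: CGAcagAAGCGC
Mmp14: CGGaggAAGCGC
Mmp15: CGTcgaCGGCGG
Mmp23: CGAagaCGCCGC

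No such stretch was found in the proteins of *Mmp2* (662 residues) or *Mmp9* (730 residues), the 2 gelatinases. These 2, with *Mmp14* and *Mmp15*, hold the cysteine of the cysteine switch in its usual surroundings, which in *Mmp2* are encoded by ccaagaTGTggcaaccca with the cysteine codon in capitals. Only the usual form was searched for, so a variant form in *Mmp11* or *Mmp23* would have been missed.

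In the TIMPs the mature protein begins with a cysteine that docks onto the zinc of the enzyme. The bases that encode the start of the mature chain are given with this cysteine codon and the next one in capitals.

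Timp1: TGTagcTGTgcccca
Timp2: TGCagcTGCtccccg
Timp3: TGCacaTGCtctccc

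These bases lie in exon 2 of *Timp1* (chrX:20871111-20871125, plus strand), in exon 1 of *Timp2* (chr11:118354998-118355012, minus strand) and in exon 1 of *Timp3* (chr10:86300923-86300937, plus strand). Apart from *Timp3*, none of the 10 genes had a window of 75 bases, the read length, in its main transcript that was also found in a transcript of another gene.

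Between 19116971 and 32055306 reads were counted on genes per lung. *Myh10* itself was counted at 505, 504, 539 and 513 CPM, with a log2 fold change of 0.06 (adjusted p = 0.662), and so the RNA does not distinguish the genotypes of a missense allele. CPM are read counts scaled to a common library size with the TMM method of edgeR, and values of the 4 lungs are given in the order wild-type 1, wild-type 2, mutant 1 and mutant 2. Fold changes are mutant over wild-type, and p-values from edgeR's quasi-likelihood test were adjusted over all 18763 genes by the Benjamini-Hochberg method. SE is the standard error of a log2 fold change. Markers of the lung were present in each lung, with the sum of 7 epithelial markers between 5975 and 8389 CPM and that of 8 mesenchymal markers between 5307 and 5631 CPM. Same-numbered lungs of the 2 genotypes differed in sex, as *Xist* was counted at 3916 and 4457 CPM in wild-type 1 and mutant 2 and at 1.84 and 4.10 CPM in wild-type 2 and mutant 1.

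Of the 10 genes, 1 was lower in mutant lungs at an adjusted p-value under 0.05, *Timp3*, and none was higher. Over all tested genes 1.34% were lower and 0.298% were higher by the same rule. At an unadjusted p-value under 0.05, 4 of the 10 were lower (*Timp3*, *Mmp14*, *Mmp2* and *Mmp9*) and 0 were higher, against 9.02% and 7.52% of all tested genes. The Wald test of DESeq2 also called *Timp3* alone, but it gave *Mmp9* and *Timp1* no adjusted p-value. Its filter on mean count leaves scarce genes out, and *Timp1* averaged 191 reads. The DESeq2 counts given below therefore cover only better-counted genes. In 6 of the 10 both mutant lungs lay below both wild-type lungs, an arrangement found in 24.3% of all tested genes, and in 0 of the 10 did both lie above, against 23.9%. The median log2 fold change of the 10 genes was -0.12, against 0.00179 over all tested genes. RNA of a whole lobe cannot tell fewer cells of a type from less RNA per cell.

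**Figure D1:**
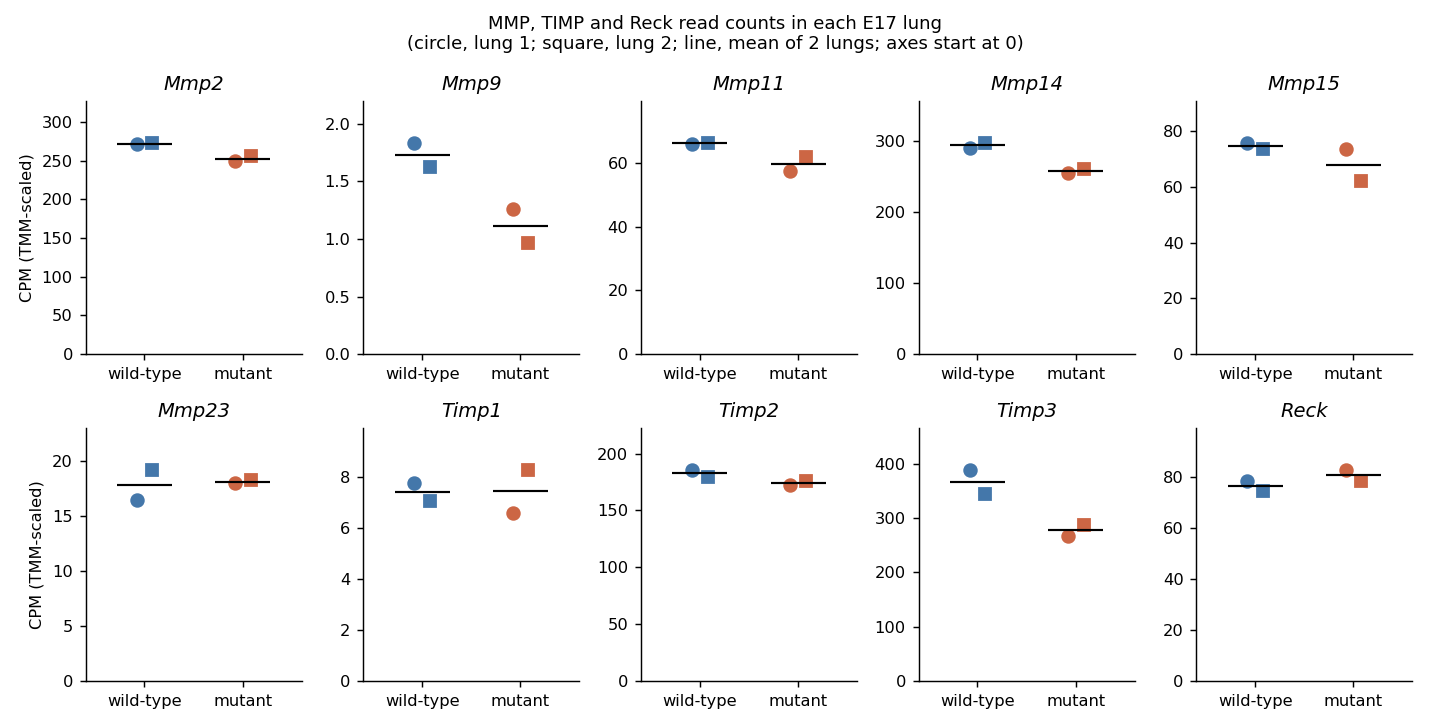
TMM-scaled CPM (vertical axes, each starting at 0) of the 10 genes in each E17 lung, wild-type in blue and mutant in orange, with circles for lung 1, squares for lung 2 and a line at the mean of 2 lungs. The *Timp3* values of 267 and 287 CPM in mutant lungs sit below the 345 and 389 CPM of wild-type lungs, while *Timp1*, *Mmp15*, *Mmp23* and *Reck* overlap between genotypes.

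*Timp3* encodes the TIMP that stays bound to the matrix and that inhibits ADAM and ADAMTS enzymes besides MMPs. Its level was 389 and 345 CPM in wild-type lungs and 267 and 287 CPM in mutant lungs. The means were 367 ± 30.8 and 277 ± 13.6 CPM (SD, n = 2 each), and the lower wild-type lung was still above the higher mutant lung. *Timp3* fell by 24.5%, a log2 fold change of -0.40 (SE 0.06, adjusted p = 0.0108), with a 95% interval of the fold from 0.688 to 0.829. The 2 wild-type lungs differed by 11.9% and the 2 mutant lungs by 6.95%, where counting error alone gives a standard deviation of 1.63% and 1.56% of such a difference. The call held in all 10 alternatives that kept the 4 lungs, though 1 of them was the same fit at a looser threshold and could not lose it. Adjusted p was 6.02e-14 with no filter on low counts, 1.4e-05 with DESeq2 and 0.00217 to 0.0126 in the others. After removal of any single lung the log2 fold change lay between -0.49 and -0.32. Markers of several cell types were lower in the same lungs. Of 7 epithelial markers 3 were lower at an adjusted p-value under 0.05 (4 with DESeq2), while *Nkx2-1* and *Epcam* had log2 fold changes of 0.02 and -0.04 and overlapped. The summed level of all 7, most of it *Sftpc*, was 8389 and 8168 CPM in wild-type lungs and 5975 and 6908 CPM in mutant lungs. The 8 mesenchymal markers, of which 0 passed with edgeR or DESeq2 (1 lower at an unadjusted p under 0.05), summed to 5491 and 5631 CPM in wild-type lungs and 5452 and 5307 CPM in mutant lungs. The part of cell composition in the *Timp3* result was not tested.

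*Timp3* occupies chr10:86300372-86349506 (plus strand), wholly inside *Syn3*, a synapsin gene on the opposite strand. Of its 8144 exonic bases 1733 (21.3%) also lie in exons of *Syn3*. Of the 4648 windows of 75 bases along its main transcript 1659 occur in a *Syn3* transcript. The strand setting of the counting is not given in the sources used here, and if strand was not used, reads from these bases would have been left out in every lung. *Syn3* had 2.71, 2.42, 2.70 and 2.58 CPM in the 4 lungs, a log2 fold change of 0.04 (adjusted p = 0.957). The host gene was thus counted at a small part of the *Timp3* level and its values overlapped between genotypes.

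*Timp2*, the inhibitor that also takes part in MMP2 activation, was counted at 186 and 179 CPM in wild-type lungs and at 172 and 176 CPM in mutant lungs. Both mutant lungs lay below, but by less than the test could separate, with a log2 fold change of -0.07 (SE 0.05, adjusted p = 0.492) and a 95% interval of the fold from 0.887 to 1.02. *Timp2* occupies chr11:118301069-118355740, and no exon of another gene overlaps its exons. *Timp1*, an inhibitor that is induced in many injured tissues, was far scarcer, with 7.77 and 7.09 CPM in wild-type lungs and 6.61 and 8.30 CPM in mutant lungs. The mutant lungs enclosed both wild-type lungs, and the log2 fold change was 0.01 (SE 0.14, adjusted p = 0.988, interval of the fold from 0.810 to 1.25). *Timp1* occupies chrX:20870166-20874735, inside *Syn1* on the opposite strand with no exonic base shared, and *Syn1* had between 0.655 and 0.998 CPM. The higher *Timp1* value of each genotype was that of the lung with *Xist*. With sex as a block the fold change was 0.01 (adjusted p = 0.992).

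*Reck* was counted at 78.5 and 74.6 CPM in wild-type lungs and at 82.7 and 78.5 CPM in mutant lungs. The ranges touched, since wild-type 1 lay just above mutant 2. Its log2 fold change was 0.07 (SE 0.06, adjusted p = 0.614), with an interval of the fold from 0.954 to 1.16. Among the 4 inhibitors, then, *Timp3* passed the test, and the intervals of *Timp2* and *Reck* lay within 0.887 to 1.16 of the wild-type level.

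*Mmp14* encodes a membrane-anchored MMP that cuts fibrillar collagen and activates MMP2. Its level was 291 and 298 CPM in wild-type lungs and 255 and 261 CPM in mutant lungs. The genotypes did not overlap, and the lungs of each genotype differed by 2.18% and 2.23%. The log2 fold change was -0.19 (SE 0.05, unadjusted p = 0.00149) and the adjusted p-value of 0.0662 from edgeR did not pass the threshold. The interval of the fold ran from 0.818 to 0.941. Over the other fits with all 4 lungs the adjusted p-value lay between 0.0076 (with every gene that had a read tested) and 0.161. With a lung left out it lay between 0.0157 (without mutant 2) and 0.437. The call of *Mmp14* thus depended on the settings of the fit and the lungs entered, while its log2 fold change stayed between -0.20 and -0.17.

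*Mmp2*, gelatinase A, is a secreted MMP that the study also inhibited in cells. It was counted at 271 and 273 CPM in wild-type lungs and at 250.1 and 255 CPM in mutant lungs. Both mutant lungs were lower, the log2 fold change was -0.11 (SE 0.05) and the adjusted p-value of 0.263 did not pass. The 95% interval of the fold was 0.868 to 0.994, before any adjustment for the number of genes. The replicate lungs differed by 0.547% and 2.14%, about what counting alone gives (1.88% and 1.63% as standard deviations). The other gelatinase, *Mmp9*, known from neutrophils and other leukocytes, had 42 and 31 reads in wild-type lungs and 35 and 31 in mutant lungs. These correspond to 1.83 and 1.63 CPM in wild-type lungs and 1.26 and 0.963 CPM in mutant lungs. The log2 fold change of -0.65 (SE 0.28, adjusted p = 0.268) did not pass, and its interval of the fold was wide, from 0.416 to 0.971. At these counts the standard deviation of a difference between lungs from counting alone is 23.7% and 24.7%.

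Markers of neutrophils and other granulocytes were lower beside *Mmp9*. All 6 of the 8 listed markers that were tested had both mutant lungs below both wild-type lungs, as had 24.3% of all tested genes. At an adjusted p-value under 0.05, 1 of them (*S100a9*) was lower with edgeR and 0 with DESeq2. *Ngp*, *Ltf*, *Camp* and *Prtn3* had lower mean counts than *Timp1*, which DESeq2 filtered out, so DESeq2 could not call them. The 8 markers summed to 33.2 and 28.3 CPM in wild-type lungs and 22.4 and 21.01 CPM in mutant lungs, none was at 0 in all lungs, and *Elane* and *Mpo* had at most 3 reads in a lung. *Mmp8*, the neutrophil collagenase, had 3.75 and 3.31 CPM in wild-type lungs and 2.73 and 2.70 CPM in mutant lungs (log2 fold change -0.38, adjusted p = 0.351), and it was singled out after its values were seen. The part of granulocyte number in the *Mmp9* values was not tested.

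*Mmp11*, stromelysin-3, is a secreted MMP that convertases activate inside the cell. It was counted at 66.0 and 66.3 CPM in wild-type lungs and at 57.6 and 62.0 CPM in mutant lungs. The genotypes did not overlap, but the log2 fold change of -0.15 (SE 0.07, adjusted p = 0.328) did not pass. Its exons share 155 bases (5.6%) with *Chchd10* on the opposite strand. *Mmp15*, a second membrane-anchored MMP, had 75.8 and 73.5 CPM in wild-type lungs and 73.7 and 62.2 CPM in mutant lungs. Mutant 1 lay among the wild-type values and mutant 2 below them, and without mutant 2 the log2 fold change moved from -0.14 (adjusted p = 0.439) to -0.02, and without mutant 1 to -0.26 (adjusted p = 0.0573). *Mmp23*, an MMP anchored by its N-terminus, had 16.5 and 19.2 CPM in wild-type lungs and 18.0 and 18.3 CPM in mutant lungs, with both mutant lungs between the wild-type ones (log2 fold change 0.03, adjusted p = 0.911).

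**Figure D2:**
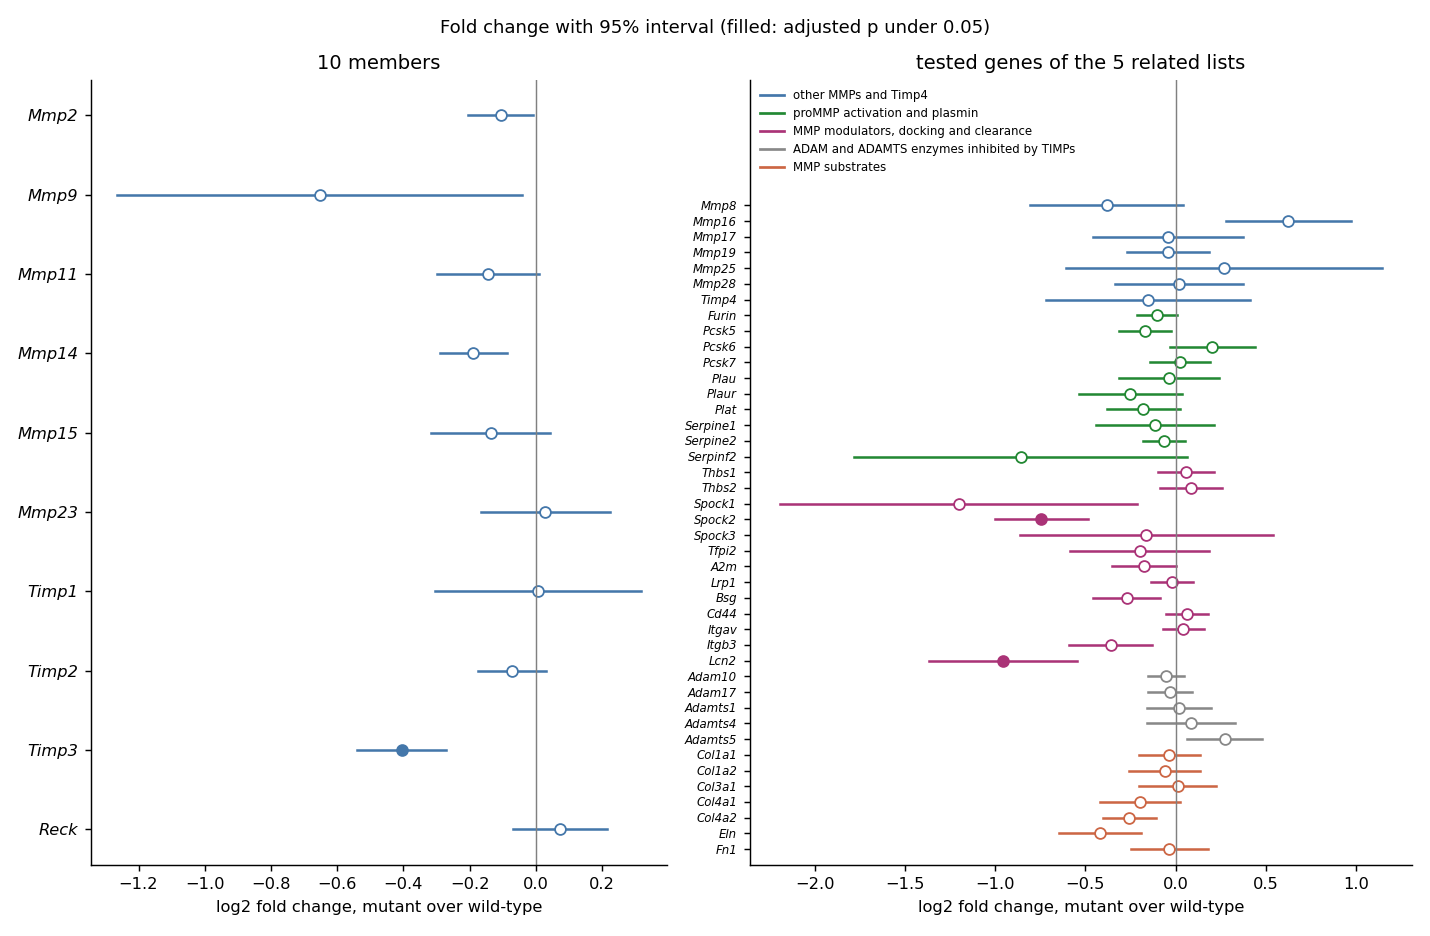
Log2 fold change, mutant over wild-type (horizontal axes), with its 95% interval, for the 10 genes (left) and for the tested genes of 5 related lists (right, coloured by list), with filled points for an adjusted p-value under 0.05. On the left *Timp3* at -0.40 is the filled point, and on the right *Spock2* and *Lcn2* are.

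Levels can be compared between genes only per length, so CPM were divided by the merged exon length in kb from GENCODE M21, which gave 18664 of the tested genes a length. On this scale *Mmp2* was the most abundant of the 10, between 74.2 and 81.0 CPM per kb, above 97.7% of all tested genes. *Mmp14* (42.9 to 50.0 CPM per kb), *Timp2* (44.2 to 47.7) and *Timp3* (32.8 to 47.7) followed, and the ranges of these 3 over the lungs overlapped. *Mmp11* (20.7 to 23.9), *Reck* (15.6 to 17.3) and *Mmp15* (11.5 to 14.0) each lay apart from their neighbours in the order. *Timp1* (7.45 to 9.34) and *Mmp23* (7.03 to 8.21) overlapped, and *Mmp9* (0.272 to 0.518) was lowest, above 15.8% of tested genes. With the longest transcript as length, *Mmp14* averaged 85.4 and *Mmp2* 85.3 CPM per kb, *Timp3* (68.2) came above *Timp2* (48.1) and *Mmp23* (12.5) above *Timp1* (8.43), so the order within these pairs rests on the length taken.

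**Figure D3:**
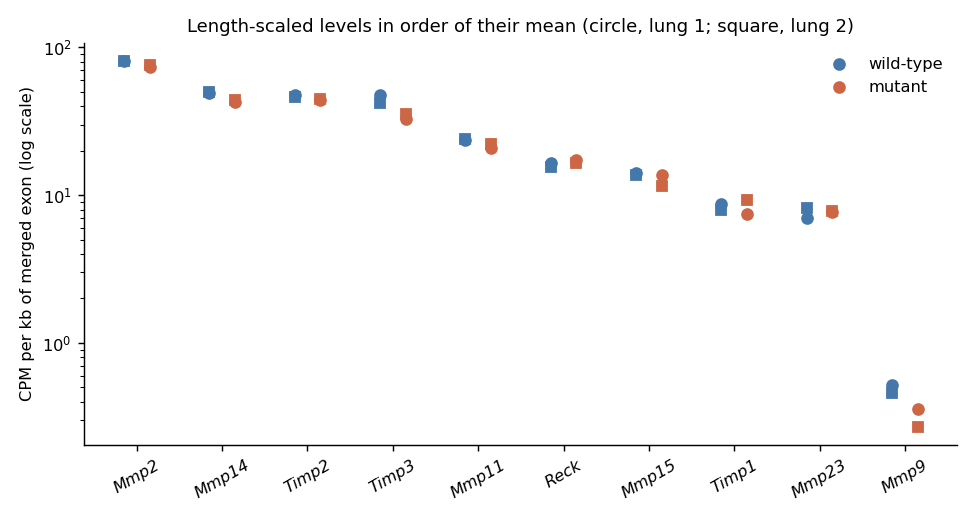
Length-scaled level (CPM per kb of merged exon, log scale) of the 10 genes in each lung, ordered by their mean, wild-type in blue and mutant in orange. *Mmp2* is highest at 74.2 to 81.0 CPM per kb and *Mmp9* lowest at 0.272 to 0.518.

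Ratios of length-scaled levels were formed within each lung, since enzyme and inhibitor act as a pair. They restate the levels given above, so ratios with *Timp3* carry its lower level and are not separate results. The log2 ratio of *Mmp2* to *Timp3* was 0.75 and 0.93 in wild-type lungs and 1.18 and 1.11 in mutant lungs, a difference of 0.30 between the means, against 0.18 between the 2 wild-type lungs. Both mutant lungs had the higher ratio. The log2 ratio of *Mmp2* to *Timp2* was 0.76 and 0.81 in wild-type lungs and 0.75 and 0.75 in mutant lungs, and here the mutant lungs were slightly lower, by 0.04. Other ratios were lower by more in mutant lungs. *Mmp14* against *Timp2* was 0.04 and 0.12 in wild-type lungs and -0.04 and -0.04 in mutant lungs. *Mmp2* against *Reck* was 2.29 and 2.38 in wild-type lungs and 2.10 and 2.21 in mutant lungs. The log2 ratio of *Mmp14* to *Timp3* was 0.03 and 0.24 in wild-type lungs and 0.38 and 0.32 in mutant lungs. *Timp3* against *Timp2* was 0.00106 and -0.12 in wild-type lungs and -0.43 and -0.36 in mutant lungs, a difference of -0.33 where the larger gap within a genotype was 0.12. With longest transcripts this ratio was positive in every lung (0.29 to 0.72), with the same difference. *Mmp2* against *Mmp14* was 0.72 and 0.70 in wild-type lungs and 0.79 and 0.79 in mutant lungs, so the mean ratio was higher by 0.08 in mutant lungs.

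Summed over the families, the difference was smaller. The 6 MMPs against the 3 TIMPs gave log2 ratios of 0.75 and 0.88 in wild-type lungs and 0.92 and 0.85 in mutant lungs, which overlapped. With the longest transcripts as lengths they were 0.73 and 0.88 in wild-type lungs and 0.94 and 0.88 in mutant lungs, and both mutant lungs then lay above, the lower one by a margin of under 0.01. Against *Timp1* and *Timp2* alone, the ratios were 1.63 and 1.71 in wild-type lungs and 1.63 and 1.57 in mutant lungs, so without *Timp3* the mutant lungs had the lower ratio. No p-value is given for ratios, since an exact permutation test of 2 lungs against 2 cannot go below 0.333 (two-sided).

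**Figure D4:**
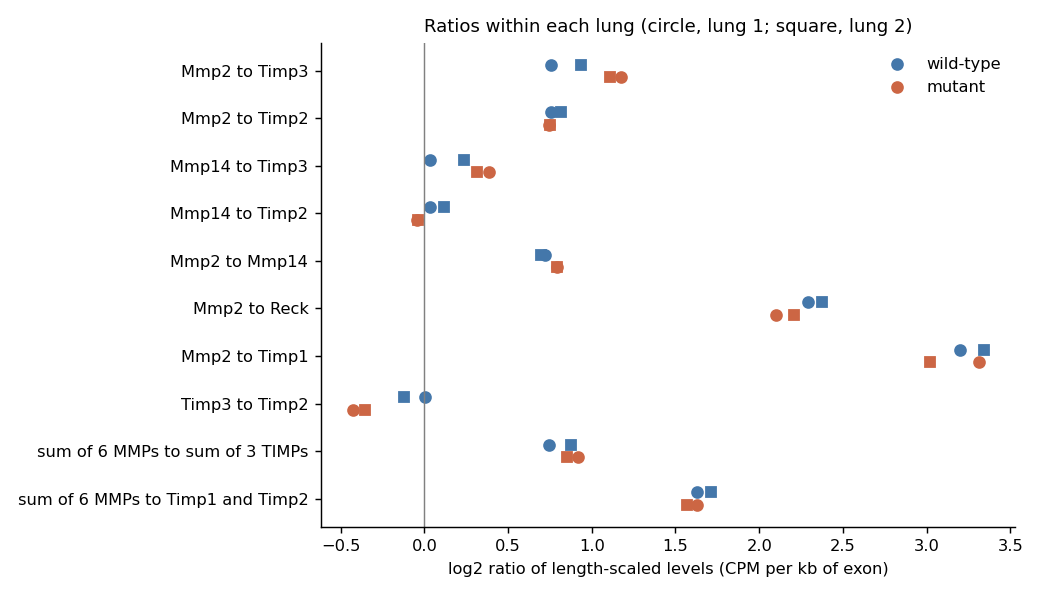
Log2 ratios of length-scaled levels within each lung (horizontal axis), wild-type in blue and mutant in orange. Ratios over *Timp3* are higher in both mutant lungs, 1.11 and 1.18 against 0.75 and 0.93 for *Mmp2*, and the ratio of the summed families overlaps between genotypes on these merged exon lengths, though not with longest transcripts.

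Genes related to the MMPs were taken from 5 lists, the remaining MMPs with *Timp4*, activation of proMMPs, modulators and docking partners, ADAM and ADAMTS enzymes that TIMPs inhibit, and MMP substrates. Of their 54 genes 42 were tested. With edgeR, 2 were lower (*Spock2* and *Lcn2*) and 0 higher at an adjusted p-value under 0.05, against 1.34% and 0.298% of all tested genes. At an unadjusted p under 0.05, 8 were lower and 2 higher, against 9.02% and 7.52%. DESeq2 called 4 lower and 0 higher, and over all genes 258 lower and 85 higher. DESeq2 was run on the same 18763 genes but gave no adjusted p-value to those that its filter on mean count left out. The same shares stand beside the counts of the single lists below. Their median log2 fold change was -0.06.

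Of the 18 remaining family members, 7 were tested. DESeq2 called 0 of them, but all except *Mmp19* had lower mean counts than *Timp1*, so DESeq2 could not call those. With edgeR 0 passed, while 1 was higher at an unadjusted p under 0.05. This was *Mmp16*, a membrane-anchored MMP that can activate proMMP2. It had 5.68 and 4.15 CPM in wild-type lungs and 7.91 and 7.40 CPM in mutant lungs. Both mutant lungs were higher, the log2 fold change was 0.62 (SE 0.16), and the adjusted p-value of 0.0769 did not pass. It was called higher in 5 of the 10 alternatives that kept the 4 lungs, and without wild-type 1 or mutant 2. *Mmp19*, the most counted of these genes, had 16.6, 14.3, 13.9 and 16.2 CPM (adjusted p = 0.887) and *Mmp28* had 5.54, 5.04, 4.78 and 5.94 CPM (adjusted p = 0.971), both with overlap. The others were scarce. *Mmp1a*, *Mmp1b*, *Mmp10*, *Mmp20* and both rows named *Mmp27* had 0 reads in every lung, which allows up to 0.0932 CPM in mutant 2 and 0.158 CPM in wild-type 2 (3 reads per lung, counting error only). *Mmp3*, *Mmp7*, *Mmp12*, *Mmp13*, *Mmp21* and *Mmp24* averaged at most 4.25 reads and were not tested.

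Of 11 genes of proMMP activation and the plasmin system 10 were tested and none passed with edgeR, with 1 lower at an unadjusted p under 0.05 and 0 called by DESeq2. *Furin*, the convertase that cuts the arginine-rich stretch printed above, had 123, 125, 117 and 114 CPM (log2 fold change -0.10, adjusted p = 0.339). *Pcsk5*, another convertase, had a log2 fold change of -0.17 (adjusted p = 0.219) and *Serpine2*, an inhibitor of plasminogen activators, of -0.07 (adjusted p = 0.575). *Plg*, the gene of plasminogen, had at most 8 reads in a lung and was not tested.

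Among 13 modulators and docking partners, all tested, 2 fell with edgeR (*Spock2* and *Lcn2*), 5 were lower and 0 higher at an unadjusted p under 0.05, and DESeq2 called 2 lower (*Spock2* and *Bsg*). *Spock2* encodes testican-2, a proteoglycan that modulates the inhibition of membrane-type MMPs. It had 67.9 and 67.3 CPM in wild-type lungs and 33.8 and 46.8 CPM in mutant lungs, and fell by 40.3% (log2 fold change -0.74, adjusted p = 0.0118). The gap between the mutant lungs was wide, but both lay well below the wild-type lungs. *Lcn2*, whose product forms a complex with MMP9, was counted at 4.93 and 4.46 CPM in wild-type lungs and at 2.26 and 2.58 CPM in mutant lungs, a log2 fold change of -0.95 (adjusted p = 0.0293). *Lcn2* averaged 86 reads, fewer than *Timp1*, which DESeq2 filtered out, so DESeq2 could not call *Lcn2*. Without wild-type 1, edgeR did not call it. The granulocyte markers given beside *Mmp9* were lower in the same lungs, and their part in the *Lcn2* result was not tested. *Bsg*, known as an inducer of MMPs, had 819, 883, 659 and 751 CPM (log2 fold change -0.27, adjusted p = 0.137 with edgeR), and was called lower by DESeq2, with no filter and without mutant 2. *Thbs1*, an MMP-binding thrombospondin, had 322, 351, 378 and 322 CPM with overlap between genotypes (log2 fold change 0.06, adjusted p = 0.748). *Lrp1*, a receptor that clears MMPs, had a log2 fold change of -0.02 (adjusted p = 0.894).

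None of the 5 ADAM and ADAMTS genes passed with edgeR, where 1 was higher at an unadjusted p under 0.05 and DESeq2 called 0. *Adam10*, *Adam17* and *Adamts1*, targets of *Timp3* or its relatives, had log2 fold changes of -0.05, -0.03 and 0.02 (adjusted p of 0.619, 0.834 and 0.933). Of 7 substrates 0 passed with edgeR, with 2 lower at an unadjusted p under 0.05, and DESeq2 called 2 lower (*Eln* and *Col4a2*). In alternative edgeR fits both were called lower with no filter and without chromosomes X, Y and MT. *Eln* was also called with robust = TRUE and with the sex block. *Eln*, the gene of tropoelastin, had 2321 and 2439 CPM in wild-type lungs and 1763 and 1798 CPM in mutant lungs, a log2 fold change of -0.42 (adjusted p = 0.072 with edgeR), while *Col3a1* and *Col1a2* were at 0.01 and -0.06. *Spock2* was lower in the lungs whose summed epithelial markers, mostly *Sftpc*, were lower, while *Nkx2-1* and *Epcam* overlapped between genotypes. The part of epithelial content in the *Spock2* result was not tested.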

How the data were processed

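RNA of 2 wild-type and 2 mutant left lung lobes had been made into stranded mRNA libraries and sequenced as single-end reads of 75 bases. The authors trimmed the reads (Reaper), mapped them onto GRCm38 (STAR 2.4.0a) and deposited raw counts per Ensembl gene from featureCounts 1.5.1, leaving out reads on several genes or regions (versions from the submitters' processing notes). Genotypes came from the labels.

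Counts were fitted with edgeR 4.0.16 in R 4.3.3 (TMM, glmQLFit, glmQLFTest) on genes that averaged 5 counts or more, adjusted over all of them. The procedure was tested on simulated data with planted changes, to check that it recovers them. That does not measure its errors on these lungs. The genes and lists were chosen with earlier results of these data known. A gene of the lists is not reported here and was left out of their counts. Named are the 10 genes, list genes that passed, and up to 3 others per list by mean count. Positions, lengths and sequences came from GENCODE M21 (GRCm38), and the Ensembl release of the counts is not given in the sources used here. Markers of endothelium, smooth muscle, leukocytes, cardiac muscle and mesothelium were also summed. Alternatives were other scalings, filters, blocks and thresholds, DESeq2 1.42.0 and leaving out lungs. Embryos' litters are not given, so p-values do not account for litter. Since edgeR draws each gene's variance toward a trend over all genes, p-values and SEs also rest on other genes, not only on these lungs.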

Additional observations from a re-analysis of the deposited data

How the results depend on the processing

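Among the 10 genes, 1 was lower and 0 were higher, and the count lower became 2, with *Mmp14* added to *Timp3*, with no filter on low counts, with the replicate block and at an adjusted p under 0.1. With lungs left out it ranged from 1 to 2. The lungs share only numbers: deviations of same-numbered lungs correlated at -0.297 across genes and at 0.0114 without chromosomes X and Y. The sex block, which crosses the numbers, gave 1. With the replicate block *Mmp14* had an adjusted p of 0.0211.

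Of the related genes, 2 were lower. There were 7 with no filter, 4 with the Wald test of DESeq2, 4 without chromosomes X, Y and MT, 4 at an adjusted p under 0.1, and 2 to 6 with lungs left out, with 2 (*Spock2* and *Eln*) without wild-type 1 and 6 without mutant 2. The count became 3 with robust = TRUE and with the sex block. Those higher rose from 0 to 1 (*Mmp16*) with no filter, with robust = TRUE, with either block and at an adjusted p under 0.1, and were 0 to 3 with lungs left out. The causes were not tested.

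Signs of the 10 genes turned for *Timp1* and *Mmp23*, in these alternatives. *Timp1* was at -0.00249 with the replicate block, -0.055 without wild-type 2 and -0.17 without mutant 2, and *Mmp23* at -0.083 without wild-type 1. With single lungs left out *Timp1* ranged from -0.17 to 0.16 and *Mmp23* from -0.083 to 0.14. Leaving out a lung assumes that the lone lung varies like the others. Over all genes 252 were lower and 56 higher. These were 234 and 112 with library totals (median log2 fold change 0.0218), 688 and 474 with no filter, 466 and 244 with the replicate block, 339 and 135 with robust = TRUE, 320 and 95 with the sex block, 258 and 85 with DESeq2, 289 and 90 without chromosomes X, Y and MT, 473 and 223 at an adjusted p under 0.1, and 875 and 768 without mutant 2. The summed MMP to TIMP ratio differed by 0.11 with longest transcripts, where the genotypes did not overlap, against 0.07.

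With 2 lungs per genotype, small changes such as that of *Mmp2* cannot be settled. *Mmp9*, at 31 to 42 reads, is limited by depth.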

Other observations

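Within the families, shares of the summed length-scaled level describe which gene dominates, and they restate the levels given above. *Mmp2* held 43.8% and 43.7% of the summed MMP level in wild-type lungs and 44.3% and 44.5% in mutant lungs, and *Mmp14* 26.6% and 27.0% in wild-type lungs and 25.6% and 25.7% in mutant lungs. Among the 4 TIMPs, *Timp3* held 45.7% and 43.8% in wild-type lungs and 38.7% and 39.2% in mutant lungs, and *Timp2* 45.7% and 47.6% in wild-type lungs and 52.1% and 50.1% in mutant lungs. *Timp4* stayed between 0.255% and 0.341%.

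Summed levels of markers of other cells differed between genotypes, and some of the sums rested mostly on 1 gene. Of 4 tested cardiac muscle markers 3 were lower at an adjusted p under 0.05, with sums of 183 and 234 CPM in wild-type lungs and 147 and 134 CPM in mutant lungs. The 6 leukocyte markers (1 lower with edgeR, 0 with DESeq2) summed to 256 and 239 CPM in wild-type lungs and 175 and 210 CPM in mutant lungs. Most of this was *Lyz2* (186, 173, 117 and 148 CPM in the 4 lungs), the marker called. Of the 6, 5 had negative log2 fold changes and *Cd68* a positive one (0.08). The 4 mesothelium markers (1 lower with edgeR, 0 with DESeq2) summed to 315 and 343 CPM in wild-type lungs and 231 and 281 CPM in mutant lungs. Most of this was *Msln* (207, 224, 129 and 169 CPM), the marker called. *Wt1* was higher in both mutant lungs (log2 fold change 0.15), while *Lrrn4* at 0.02 and *Upk3b* at -0.11 overlapped. None of the 5 endothelium or 5 smooth muscle markers passed with edgeR or DESeq2, with 3 and 0 lower at an unadjusted p under 0.05, and their sums were 1147 to 1292 and 636 to 709 CPM.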
